A study of Mus musculus with 35 samples.

Results

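The CC and CXC chemokine ligands are small secreted proteins that guide leukocytes through tissue. They were taken as every protein-coding gene whose symbol is Ccl or Cxcl followed by a number and at most 1 letter, which gave 42 of the 54532 genes in the count table. These 42 genes carry 36 different symbols, with 30 CC and 12 CXC ligands. Among them, 7 lie on unplaced scaffolds of the mouse genome and carry the symbols Ccl19, Ccl21a, Ccl21b, Ccl21c or Ccl27a.

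Each ligand binds one or a few G protein-coupled receptors on leukocytes and is also held on glycosaminoglycans, so that cells move towards its source. ELR ligands such as Cxcl1 and Cxcl5 attract neutrophils through CXCR2, the interferon-induced ligands Cxcl9 and Cxcl10 attract activated T cells through CXCR3, and Ccl17 and Ccl22 are the ligands of CCR4, a receptor of Th2 and regulatory T cells. In the lung Cxcl15 is known as lungkine, a product of the airway and alveolar epithelium, and Cxcl12, the ligand of CXCR4, is made by stromal and endothelial cells.

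Whole lungs of adult mice were measured by RNA sequencing after 6 weeks in room air (normoxia) or in 10% oxygen (hypoxia). Control mice were B6/129SJ2 wildtype animals, and Cav1-KO mice (Cav1tm1Mls/J) carried a global knockout of caveolin-1, the coat protein of caveolae. Cav1-RC mice carried the same knockout with Cav1 put back in endothelial cells. Females and males of each genotype at each oxygen level made 12 groups of 3 libraries, except that female Cav1-KO and female Cav1-RC in normoxia had 2 each, 34 libraries in all. A further library whose identity the labels call uncertain entered no comparison.

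The genotype of the knockout was checked at Cav1 itself. Cav1 stood at 989 to 1356 CPM (counts scaled to equal library size) in the 12 Control libraries and at 1.606 to 3.998 CPM in the 11 Cav1-KO libraries. The 11 libraries labelled Cav1-RC held 1.48 to 6.56 CPM, a range that overlaps that of Cav1-KO, so the counts check the deletion and not the return of the gene. Whether reads of the returned gene can be counted at this locus was not tested, and every Cav1-RC result below rests on the label. The sources used here do not name the promoter of the returned gene.

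Library depth ran from 12425535 to 33343006 counts. The study's blot source list names the animals of 12 of the 34 libraries compared, among them all hypoxic Cav1-KO libraries and all hypoxic male Control libraries but no hypoxic Cav1-RC library. These 12 listed libraries stood apart on the first principal component of all genes, at −88.98 to −43.33 against −5.13 to 63.62 for the other 22. List and condition cannot be told apart in the comparisons of hypoxia with normoxia in Cav1-KO of either sex and in male Control, of Cav1-RC with Cav1-KO in hypoxia, and of male Cav1-RC with male Control in hypoxia. Some fits below add the list as a term. Its effect is estimated only from groups holding both kinds of library, female Control at both oxygen levels and normoxic female Cav1-RC. Each of these groups holds 1 listed library. That effect is carried over to all other groups, so a call kept or lost with the term does not separate list from condition there. In 3 male-labelled libraries (male Cav1-RC normoxia replicates 1 and 2 and male Control hypoxia replicate 2) the sex-specific genes went against the label. Female Cav1-KO hypoxia replicate 2 held 17.5 CPM over 4 Y-linked genes, against at most 2.55 in the other female libraries, and was kept as labelled. The labels give 1 batch date for all libraries. In a whole lung, fewer cells of a type and less RNA per cell cannot be told apart. Alveolar type 2 markers summed to 13612 to 37761 CPM over all groups.

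Levels are first given per gene length, as FPKM values (fragments scaled by gene length and library size) that the authors deposited. A single ligand dominated the lung. Cxcl15 averaged 543.8 FPKM (SD 133.9, n = 34) and made up 42.7 to 71.1% of the summed FPKM of the 42 genes in each library. Cxcl12 followed at 60.1 (SD 35.5), Cxcl17, a mucosal ligand of epithelial cells, at 59.3 (SD 28.5), Ccl6, a macrophage product, at 58.5 (SD 53.5), and Cxcl14, a ligand of epithelium and stroma, at 53.0 (SD 25.4). The order of these 4 was not tested, and their SDs pool all 12 groups. The Ccl21a copy on a scaffold, a ligand of CCR7 that draws dendritic cells and naive T cells into lymphatics, averaged 47.5 (SD 38.2).

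Cxcl16, a ligand that is also anchored in the membrane and binds CXCR6, averaged 22.8 FPKM (SD 3.64), the steadiest of the 8 most abundant ligands. Ccl5, a product of T and NK cells, averaged 19.0 (SD 8.72). Another 15 genes averaged 1 to 10 FPKM, led by Ccl8, Cxcl13, Ccl17, Ccl9 and Ccl11 (7.93, 6.65, 6.65, 6.33 and 4.26 FPKM), and 19 averaged below 1. Of the 42 genes 28 had a count in every library. One scaffold copy of Ccl27a had no count in any library.

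**Figure D1:**
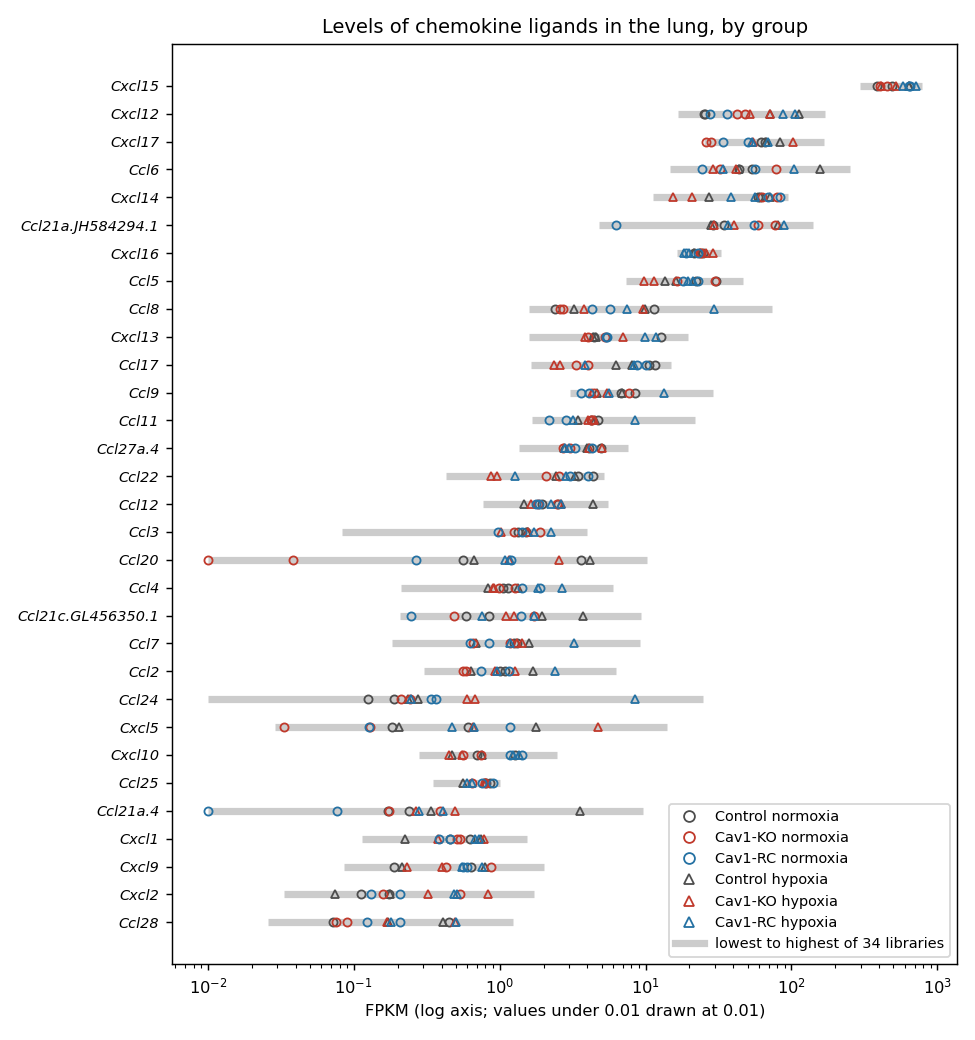
FPKM (log axis) of the chemokine ligands that average at least 0.1, with circles for normoxic and triangles for hypoxic group means coloured by genotype, and a grey bar from the lowest to the highest of the 34 libraries. Cxcl15 stands alone with an average of 543.8 FPKM, and 7 genes average between 10 and 100.

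Counts were tested with edgeR's quasi-likelihood test, and a gene was called when its absolute log2 fold change passed 1 at a Benjamini-Hochberg adjusted p under 0.05 over all genes tested. All adjusted p-values below are from that test, fold changes are log2 with their standard error (SE), and levels are CPM. Of the 42 genes 32 passed the filter on low counts in at least 1 pairwise comparison and 22 in all 18. The other 10, Ccl1, Ccl26, Ccl27b and 7 genes named Ccl19, Ccl21b, Ccl21c or Ccl27a, never exceeded 12 counts in a library and were left untested. Of the 32 tested, 17 were called in at least 1 of the 27 comparisons of 2 groups or of both sexes together, beside 34% of all genes tested in any of them. A gene enters such a count only where it passed the filter, so the untested 10 are not shown to be unchanged.

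Loss of Cav1 went with lower Ccl17 at both oxygen levels, lower Cxcl17 and Ccl20 in normoxia, and lower Ccl22 in hypoxia. With both sexes together, in normoxia 0 ligands were higher and 4 lower in Cav1-KO than in Control of 29 tested, beside 5.78% of all genes called. In hypoxia 1 was higher and 4 were lower of 32, beside 4.14%. The median log2 fold change of the ligands was −0.22 in normoxia and −0.13 in hypoxia, against −0.03 and 0.01 over all genes tested.

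With the 2 groups of 1 sex fitted alone, calls were made in males. In normoxic males 0 ligands rose and 5 fell of 27 (5% of all genes called), and in hypoxic males 1 fell of 30 (0.929%). In normoxic females none of 25 was called (0.122%), with 4 at an unadjusted p under 0.05 and 2 called by DESeq2's Wald test. In hypoxic females none of 30 was called (0.768%), with 7 at an unadjusted p under 0.05 and 4 called by DESeq2. With all libraries in 1 fit 8 were called in hypoxic females and 2 in hypoxic males, and leaving out 1 library gave 0 to 7 in hypoxic females. No ligand was called by edgeR when the female and male changes were themselves compared after the filter, as given further below.

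Ccl17 (chromosome 8, 94810453 to 94812036, plus strand, mm10) and Ccl22 (chromosome 8, 94745590 to 94751699, plus strand) are neighbours and share the receptor CCR4. Dendritic cells are a known source of both. In normoxia Ccl17 read 6.52, 5.88 and 5.68 CPM in female and 5.05, 6.39 and 5.09 in male Control. In Cav1-KO it read 2.49 and 1.72 in females and 1.43, 2.16 and 1.62 in males. All 5 Cav1-KO libraries lay below all 6 Control libraries, at a log2 fold change of −1.59 (SE 0.18, adjusted p = 0.000492).

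In hypoxia Ccl17 read 3.63, 3.88 and 2.41 CPM in female and 4.43, 3.29 and 4.86 in male Control, against 0.861, 1.38 and 1.44 in female and 1.11, 1.78 and 1.18 in male Cav1-KO. The groups again did not overlap, at −1.54 (SE 0.23, adjusted p = 0.00327). Both calls held in every fit that left out 1 library, and with the blot list as a term at −1.52 in normoxia and −1.62 in hypoxia. Within the listed libraries alone, which hold 1 hypoxic female Control library, the hypoxic difference was −1.59, and only its size is given. Within the others alone the normoxic difference was −1.55. In males the difference was −1.65 (SE 0.23, adjusted p = 0.0052) in normoxia and −1.66 (SE 0.32, adjusted p = 0.0468) in hypoxia. The hypoxic male call was lost in 4 of 6 fits that left out 1 library (male Cav1-KO replicate 1 or 3, male Control replicate 1 or 3, at −1.51, −1.57, −1.63 and −1.54).

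Ccl22 overlapped between genotypes in normoxia and separated in hypoxia. In normoxia Control held 6.66, 9.12 and 8.42 CPM in females and 12.3, 11.4 and 7.29 in males, against 7.64 and 4.26 in female and 3.98, 5.91 and 4.69 in male Cav1-KO. The difference of −0.76 (SE 0.21, adjusted p = 0.0378) did not pass the fold threshold. In hypoxia Control held 4.83, 6.04 and 6.27 in females and 10.5, 4.14 and 8.58 in males, against 1.43, 1.63 and 3.73 in female and 1.73, 3.44 and 1.00 in male Cav1-KO. All hypoxic Cav1-KO libraries were below all Control libraries, at −1.64 (SE 0.35, adjusted p = 0.0156), and leaving out any 1 library kept the call. The normoxic male difference of −1.07 (SE 0.25, adjusted p = 0.0303) was lost in 5 of 6 such fits, all but the one without male Control replicate 3, with values of −1.28 to −0.93 over the 6.

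The level of dendritic cell markers overlapped between the genotypes at both oxygen levels. Summed over 9 markers it was 184 to 218.2 CPM in normoxic Cav1-KO and 173 to 215 in normoxic Control, and 165 to 210 against 136 to 191 in hypoxia. None of the 9 markers was called between Cav1-KO and Control at either oxygen level, and none was at 0 in every library. T cell markers were lower in normoxic Cav1-KO, with 3 of 10 called and a sum of 40.0 to 71.3 CPM against 70.8 to 135.4 in Control. In hypoxia 4 of the 10 were lower. Their part in the fall of Ccl17 and Ccl22 was not tested.

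**Figure D2:**
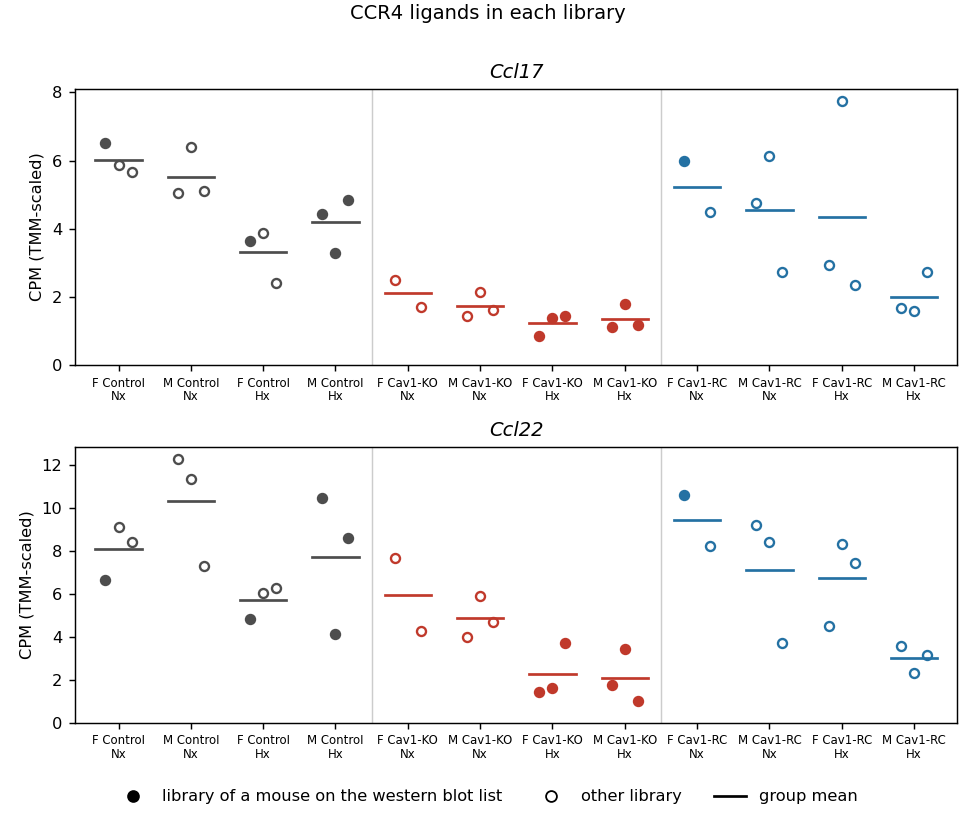
Ccl17 and Ccl22 in CPM for every library by genotype, oxygen level and sex, with filled points for libraries on the blot source list, open points for the others and a line at each group mean. For Ccl17 every Cav1-KO library lies below every Control library at the same oxygen level, and for Ccl22 this holds in hypoxia.

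The promoters of both genes are shown because Ccl17 was called between Cav1-KO and Control at both oxygen levels and Ccl22 in hypoxia. Each run holds 250 bases before to 50 after the RefSeq start on GRCm38.p6, at chr8:94810203-94810502 for Ccl17 and chr8:94745434-94745733 for Ccl22, both on the plus strand. The RefSeq start of Ccl22 lies 94 bases downstream of the start in the count table. Capitals mark matches on either strand to 3 motifs: ACGTG (hypoxia-inducible factor), GCGTG (a related hypoxia and aryl hydrocarbon receptor core) and TTCNNNNGAA (STAT6 type).
Ccl17: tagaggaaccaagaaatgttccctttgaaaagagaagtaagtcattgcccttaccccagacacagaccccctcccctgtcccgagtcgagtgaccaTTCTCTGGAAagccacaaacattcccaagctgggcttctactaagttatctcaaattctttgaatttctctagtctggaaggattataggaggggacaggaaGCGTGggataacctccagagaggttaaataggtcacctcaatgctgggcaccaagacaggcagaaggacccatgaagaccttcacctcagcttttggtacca
Ccl22: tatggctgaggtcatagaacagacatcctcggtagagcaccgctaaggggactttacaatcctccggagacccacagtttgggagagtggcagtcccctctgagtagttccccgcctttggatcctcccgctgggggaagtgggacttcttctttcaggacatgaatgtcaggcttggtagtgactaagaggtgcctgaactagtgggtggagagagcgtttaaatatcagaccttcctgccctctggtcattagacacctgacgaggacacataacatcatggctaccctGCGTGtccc
Ccl17 held 1 TTCNNNNGAA match, 154 to 145 bases before its start, a motif found in 6.95% of all 32851 promoters and in 1 of the 25 ligand symbols with a promoter in the table. It also held a GCGTG match (32.4% of all promoters, 12 of 25 ligands). Ccl22 held only GCGTG, after its start. Neither held ACGTG, which 19.6% of all promoters and 4 of 25 ligands had. A match is a run of letters and not a shown binding site.

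Cxcl17, Ccl20, Ccl28 and Cxcl5 are ligands of surface epithelium. Cxcl17 (chromosome 7, 25400053 to 25412886, minus strand) attracts monocytes and dendritic cells at mucosal surfaces. In normoxia it read 79.3, 43.4 and 29.7 CPM in female and 39.9, 60.5 and 42.3 in male Control, against 20.4 and 19.2 in female and 20.6, 22.8 and 20.7 in male Cav1-KO. The 5 Cav1-KO libraries were tightly grouped below all Control libraries, at −1.26 (SE 0.23, adjusted p = 0.0057). In males the difference was −1.15 (SE 0.17, adjusted p = 0.0057), and it fell short of the fold threshold, at −0.93, without male Control replicate 2. In hypoxia the genotypes overlapped, at 35.6 to 130 CPM in Cav1-KO and 47.4 to 70.5 in Control.

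Ccl20 (chromosome 1, 83116766 to 83119167, plus strand), the ligand of CCR6, was almost absent from normoxic Cav1-KO lungs. Control held 0.944, 1.01 and 0.446 CPM in females and 9.08, 5.30 and 1.32 in males. Of the 5 Cav1-KO libraries 4 had no count, and the other, male replicate 2, had 0.166 CPM. Over the groups this is 3 counts against 365, a ratio at equal depth of 92.5 (exact 95% interval for counting error alone 31.4 to 450.6). Of the Control counts 196 came from male replicate 1, without which the ratio was 52.8 (17.8 to 258.7). Without male Cav1-KO replicate 2, which held all 3 counts, it was at least 72.7. In females, with 0 counts in Cav1-KO, Control was at least 8.84-fold higher against a floor of 3 counts over the group. The fitted log2 fold change was −6.62 (SE 1.03, adjusted p = 0.00308), a size that depends on the prior count, and the call held in 11 of 11 fits without 1 library (−8.23 to −6.28).

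Ccl28, a mucosal ligand of CCR10 and CCR3, fell in normoxic males from 2.32, 3.11 and 1.19 CPM in Control to 0.124, 0.608 and 0.377 in Cav1-KO. That difference of −2.51 (SE 0.54, adjusted p = 0.024) was lost in 4 of 6 fits that left out 1 library, with values of −3.06 to −2.13 (each male Cav1-KO library in turn, and male Control replicate 2). Cxcl5, a neutrophil attractant of epithelial cells, was lower in normoxic Cav1-KO at −2.27 (SE 0.66, adjusted p = 0.0438). Its Cav1-KO libraries held 0.0554 and 0.0687 CPM in females and 0.124, 0.387 and 0.216 in males, overlapping the Control range of 0.128 to 2.18. The Cxcl5 call was kept in 2 of the 9 fits without 1 library in which it was tested.

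Airway markers moved with these 4 ligands. The 7 club cell markers summed to 15739 to 20069 CPM in normoxic Cav1-KO against 22927 to 66768 in normoxic Control, with 4 of 6 tested called lower. Ciliated cell markers summed to 195 to 237 CPM against 372 to 631, with 6 of 8 called lower. In hypoxia none of either list was called between Cav1-KO and Control. No marker of either list was at 0 in every library. Their part in the lower Cxcl17, Ccl20, Ccl28 and Cxcl5 was not tested.

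Ccl6, Cxcl2 and Cxcl14 made up the rest of the calls between hypoxic Cav1-KO and Control, and each overlapped between the groups. Ccl6 lay at 35.7 to 101.0 CPM in Cav1-KO (median 61.5) and at 54.6 to 459.0 in Control (median 81.7), a difference of −1.26 (SE 0.39, adjusted p = 0.0496). Its high values came from female Control replicates 2 and 3, at 459 and 339 CPM, in which alveolar macrophage markers summed to 3033 and 1972 CPM. Within the listed libraries, which do not include these, the difference was −0.04, and the call was kept in 1 of 12 fits without 1 library (−1.50 to −1.01). Cxcl2, an ELR ligand of neutrophils, lay at 0.318 to 3.64 CPM in Cav1-KO (median 0.816) and at 0.0689 to 0.523 in Control (median 0.202), at 2.06 (SE 0.56, adjusted p = 0.032). That call was kept in 4 of 12 fits without 1 library (1.51 to 2.26).

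Hypoxia went with higher Cxcl12 in Control and Cav1-RC lungs and with lower Cxcl14 in Cav1-KO lungs. Over both sexes 1 ligand rose and 0 fell of 30 tested in Control (0.846% of all genes called), 5 rose and 3 fell of 32 in Cav1-KO (17.6%), and 1 rose and 0 fell of 30 in Cav1-RC (1.22%). The ligands' median log2 change was 0.00 in the Control lungs, 0.15 with the knockout and 0.68 with Cav1-RC, against 0.00, 0.03 and −0.01 over all genes.

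By sex, 1 ligand rose and 1 fell of 28 in male Control (6.36% of all genes called), 1 rose and 2 fell of 30 in female Cav1-KO (13.3%), 2 rose and 2 fell of 28 in male Cav1-KO (17.7%), and 4 rose and 1 fell of 28 in male Cav1-RC (2.27%). In female Control none of 27 was called (0.0175%), with 3 at an unadjusted p under 0.05 and 1 called by DESeq2. In female Cav1-RC none of 29 was called (0.0285%), with 6 at an unadjusted p under 0.05 and 2 called by DESeq2. Against the background, the shares in Cav1-KO were near those of all genes.

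Cxcl12 (chromosome 6, 117168535 to 117181367, plus strand) signals through CXCR4 and ACKR3. Control lungs held 150, 168 and 297 CPM in normoxic females and 264, 178 and 189 in normoxic males. In hypoxia they held 562, 1077 and 1165 in females and 702, 564 and 503 in males. Every hypoxic Control library was above every normoxic one, at 1.83 (SE 0.23, adjusted p = 0.00202), and the call held in each of 12 fits without 1 library.

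In Cav1-RC Cxcl12 read 138 and 314 CPM in normoxic females and 291, 285 and 315 in normoxic males, against 525, 672 and 1413 in hypoxic females and 810, 637 and 705 in hypoxic males. These too did not overlap, at 1.60 (SE 0.27, adjusted p = 0.0133). Without the libraries whose sex genes go against the label the change was 1.56 (adjusted p = 0.219) and not called. Cav1-KO lungs were already at 316 and 385 in normoxic females and 400, 410 and 364 in normoxic males, all above the Control libraries, though the difference of 0.83 (SE 0.18, adjusted p = 0.0133) was under the fold threshold. In hypoxia they reached 455, 568 and 769 in females and 376, 429 and 491 in males. That change was 0.43 (SE 0.13, adjusted p = 0.0149), with overlap.

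The smaller hypoxic change of Cxcl12 in Cav1-KO was tested directly. It differed from that in Control by −1.41 (SE 0.29, adjusted p = 0.00634) and held without any 1 library, but with the blot list as a term the difference was −0.93 and not called. The change in Cav1-RC exceeded that in Cav1-KO by 1.16 (SE 0.32, adjusted p = 0.00674), which became 0.07 with the term, and which fell to 0.90 without female Cav1-RC hypoxia replicate 3 and 0.92 without female Cav1-RC normoxia replicate 1. Fibroblast markers, 8 in the list, are given beside Cxcl14 below for Cav1-KO, where 2 were lower in hypoxia. In Control they summed to 1246 to 2111 and 1448 to 1875, with none called. Their part in the Cxcl12 values was not tested.

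Cxcl14 (chromosome 13, 56288643 to 56296551, minus strand) fell in hypoxic Cav1-KO lungs. Normoxic Cav1-KO lungs held 114 and 118 CPM in females and 161, 152 and 127 in males, and hypoxic ones 28.9, 48.6 and 38.5 in females and 20.9, 38.8 and 25.5 in males. The ranges lay far apart, at −2.0 (SE 0.17, adjusted p = 1.74e-06). The change was −1.61 (SE 0.20, adjusted p = 0.00173) in females and −2.40 (SE 0.21, adjusted p = 7.34e-05) in males. With the blot list as a term, estimated outside Cav1-KO, the change over both sexes was −1.24 and still called. The female change was not called with the term. Fibroblast markers summed to 852 to 1545 CPM in hypoxic and 1850 to 2201 in normoxic Cav1-KO, without overlap, with 2 of 8 called lower. Alveolar type 2 markers summed to 13612 to 22088 against 19030 to 22239, with 4 of 8 called lower. Their part in the fall of Cxcl14 was not tested.

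Control held Cxcl14 at 94.0, 90.6 and 150 CPM in normoxic and 73.8, 147 and 173 in hypoxic females, and at 114, 93.5 and 118 in normoxic and 48.0, 53.7 and 48.5 in hypoxic males. Only the males separated, at −1.10 (SE 0.12, adjusted p = 0.00469), and all 3 hypoxic male Control libraries are listed ones. With the list as a term, whose effect comes from female libraries only, the male difference was −0.33 and not called. This does not separate list from oxygen level in males. Fibroblast markers separated in the same way in male Control, at 1448 to 1668 CPM in normoxia and 1246 to 1391 in hypoxia, with none of 8 called. In females they were 1469 to 1875 and 1560 to 2111, and their part in the Cxcl14 values was not tested. In hypoxia Cav1-KO was below Control by −1.31 (SE 0.22, adjusted p = 0.00605), and within listed libraries by −0.87, which was not called. Cav1-RC held 91.7 and 161 in normoxic and 70.0, 114 and 130 in hypoxic females, and 139, 158 and 166 in normoxic and 79.4, 52.8 and 80.3 in hypoxic males. Its male fall of −1.11 (SE 0.15, adjusted p = 0.00646) was −0.94 without male hypoxic replicate 2. Fibroblast markers summed to 1401 to 1860 CPM in normoxic and 1140 to 1392 in hypoxic male Cav1-RC, and overlapped in females. Their part in this fall was not tested.

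Tested against each other, the hypoxic change of Cxcl14 was lower in Cav1-KO than in Control by −1.57 (SE 0.29, adjusted p = 0.0047), and by −1.16 with the blot list as a term, still called. It was higher in Cav1-RC than in Cav1-KO by 1.29 (SE 0.27, adjusted p = 0.00129), which was 0.37 with the term. Both held in every fit without 1 library.

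**Figure D3:**
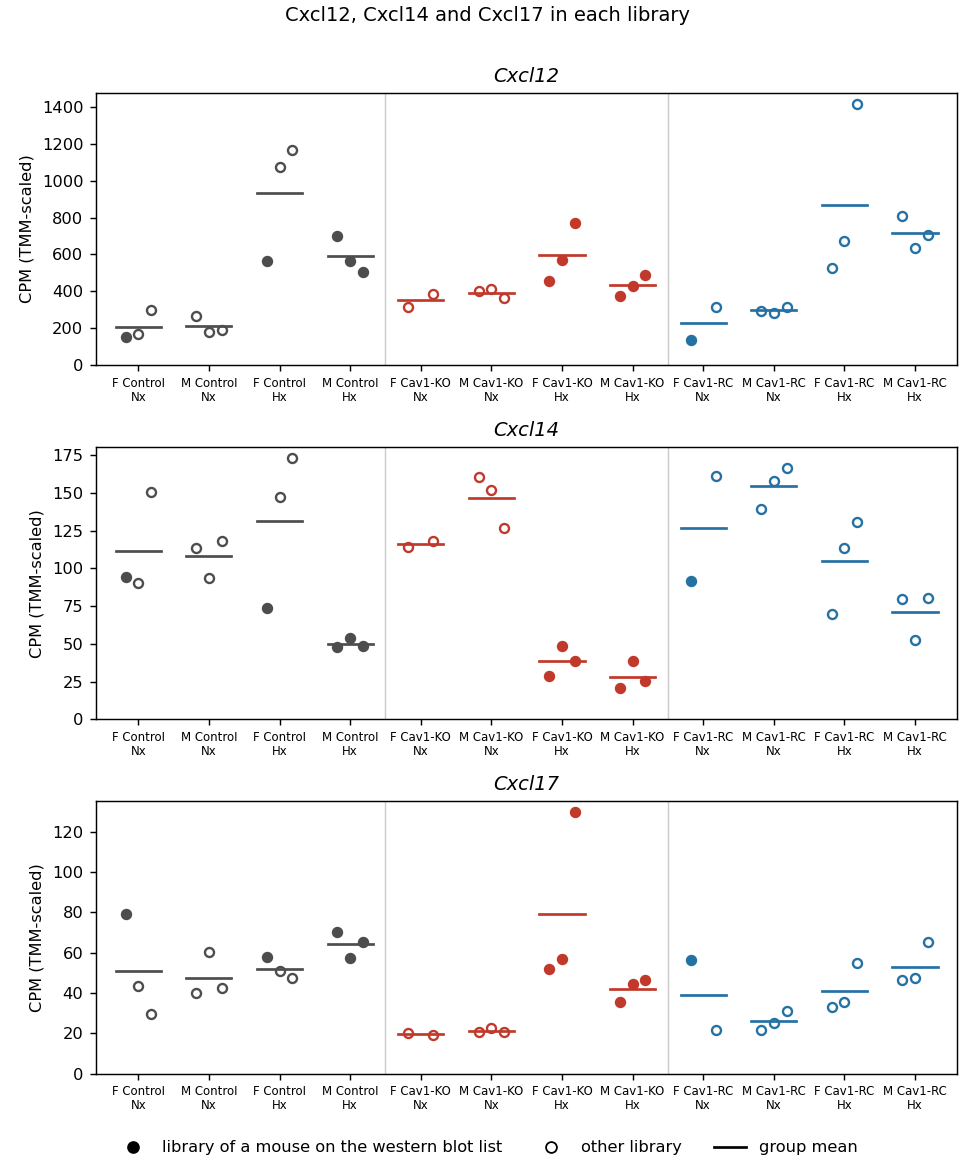
Cxcl12, Cxcl14 and Cxcl17 in CPM for every library by genotype, oxygen level and sex, with filled points for libraries on the blot source list, open points for the others and a line at each group mean. Hypoxic Control libraries lie above all normoxic ones for Cxcl12, hypoxic Cav1-KO libraries lie below all normoxic ones for Cxcl14, and normoxic Cav1-KO libraries lie below all normoxic Control libraries for Cxcl17.

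The promoters of 2 of these ligands are shown because Cxcl12 rose in hypoxic Control and Cav1-RC lungs and Cxcl14 fell in hypoxic Cav1-KO lungs. The window is the same as above, at chr6:117168285-117168584 on the plus strand for Cxcl12 and chr13:56296502-56296801 on the minus strand for Cxcl14. Capitals mark the same motifs.
Cxcl12: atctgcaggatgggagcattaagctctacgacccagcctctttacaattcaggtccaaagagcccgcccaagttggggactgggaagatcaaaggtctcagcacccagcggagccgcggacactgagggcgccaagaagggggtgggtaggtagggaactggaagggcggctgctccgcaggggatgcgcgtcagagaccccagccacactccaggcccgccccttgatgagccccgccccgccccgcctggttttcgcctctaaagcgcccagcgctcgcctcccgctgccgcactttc
Cxcl14: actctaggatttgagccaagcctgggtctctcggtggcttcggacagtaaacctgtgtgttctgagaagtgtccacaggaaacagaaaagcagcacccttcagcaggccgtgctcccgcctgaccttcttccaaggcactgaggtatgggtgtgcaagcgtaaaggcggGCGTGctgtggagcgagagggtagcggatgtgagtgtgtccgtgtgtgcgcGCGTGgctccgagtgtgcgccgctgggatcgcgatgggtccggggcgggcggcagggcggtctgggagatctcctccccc
The Cxcl12 window held none of the 3 motifs. Cxcl14 held 2 GCGTG matches, and no ACGTG. Both were rich in G and C, at 64.7 and 62.7% with 20 and 22 CpG dinucleotides, against medians of 52.7% and 7 over all promoters. Ccl17 and Ccl22 had 48.0 and 53.3% with 3 and 8.

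Cxcl17, Ccl20, Cxcl5 and Ccl28 were called higher in hypoxic than in normoxic Cav1-KO lungs. The normoxic libraries are those set against Control above, so both contrasts share them. Cxcl17 reached 51.8, 56.8 and 130 CPM in females and 35.6, 44.4 and 46.6 in males, above all normoxic Cav1-KO libraries, at 1.47 (SE 0.23, adjusted p = 0.000153), or 0.61 and not called with the blot list as a term. Control held 58.0, 51.2 and 47.4 in hypoxic females and 70.5, 57.6 and 65.1 in hypoxic males, within its normoxic range. The changes of Cxcl17 in the 2 genotypes differed by 1.23 (SE 0.32, adjusted p = 0.0168), by 0.95 when female Cav1-KO hypoxia replicate 3 was left out and 0.99 when female normoxic Control replicate 1 was, and by 0.74 (not called) with the term.

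Ccl20 reached 0.172, 0.502 and 10.3 CPM in hypoxic female and 0.884, 3.5 and 0.568 in hypoxic male Cav1-KO, against 3 counts in 5 normoxic libraries. The ratio at equal depth was 72.4 (exact 95% interval for counting error alone 24.6 to 353.0), and the fitted change 6.91 (SE 1.81, adjusted p = 0.0066). Of the 336 hypoxic counts 230 came from female replicate 3, and without it the ratio was 27.5 (9.15 to 135.3). The call held in 11 of 11 fits without 1 library (5.20 to 8.57). Its hypoxic range in Control, 0.153 to 14.9, spanned the normoxic one. The change differed between Cav1-KO and Control by 6.69 (SE 2.12, adjusted p = 0.0356), a call kept in 12 of 23 fits without 1 library.

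Cxcl5 rose in Cav1-KO by 4.66 (SE 1.45, adjusted p = 0.0148), from at most 0.387 CPM to 0.287, 0.293 and 26.4 in females and 1.38, 1.72 and 0.611 in males. Female replicate 3 was far above the rest, and the change ranged from 2.18 to 4.94 over fits without 1 library and was 2.54 (not called) with the blot list as a term. In males alone it was 2.26 (SE 0.55, adjusted p = 0.00754), or 0.14 with the term. Ccl28 rose by 1.80 (SE 0.69, adjusted p = 0.0396) with the same library highest, at 6.07 CPM against 0.544 to 0.999 in the other hypoxic Cav1-KO libraries. That call was kept in 3 of 11 fits without 1 library (0.79 to 2.06). Ccl24, an eosinophil attractant of CCR3, rose from 0.0553 to 0.435 CPM to 0.517 to 1.27, at 1.48 (SE 0.44, adjusted p = 0.0122), and at 1.28 without the call when female Cav1-KO normoxia replicate 1 was left out.

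Airway markers again moved with them. Club cell markers summed to 39367 to 62017 CPM in hypoxic Cav1-KO, with 4 of 6 called higher than in normoxia, and ciliated cell markers to 432 to 713, with 6 of 8 called higher. Neutrophil markers, 10 in the list, summed to 50.3 to 321 CPM against 36.5 to 102, with 5 of 9 called higher. Their part in these rises was not tested.

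**Figure D4:**
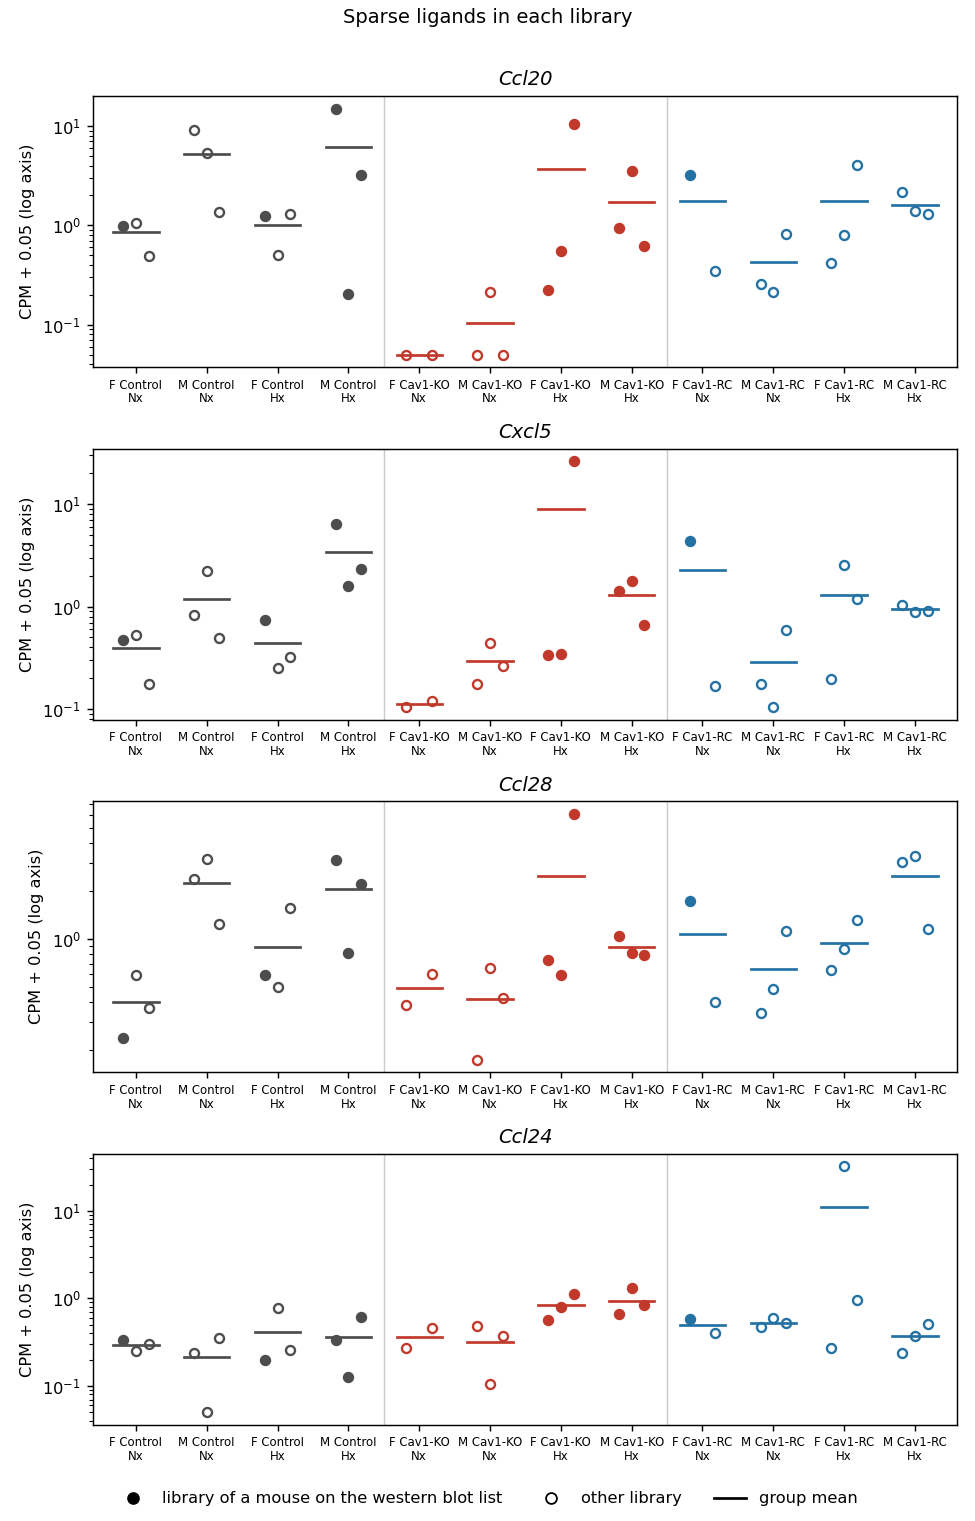
Ccl20, Cxcl5, Ccl28 and Ccl24 in every library, as CPM plus 0.05 on a log axis, with filled points for libraries on the blot source list, open points for the others and a line at each group mean. Of the 5 normoxic Cav1-KO libraries 4 sit at the floor for Ccl20, and 1 hypoxic female Cav1-KO library stands far above its group for Ccl20, Cxcl5 and Ccl28.

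Among the ligands that fell in hypoxic Cav1-KO, Ccl22 changed by −1.35 (SE 0.34, adjusted p = 0.00437), from 3.98 to 7.64 CPM to 1.00 to 3.73 with no overlap. With the blot list as a term it was −1.17 and not called. Ccl5 fell from 41.7 and 16.7 CPM in females and 18.0, 16.0 and 13.8 in males to 9.81, 11.9 and 11.8 in females and 12, 7.07 and 9.34 in males. All hypoxic libraries were below all normoxic ones, at −1.09 (SE 0.21, adjusted p = 0.000782), or −1.54 with the term, still called. Without female Cav1-KO normoxia replicate 1, the highest library, it was −0.68, which is under the fold threshold. NK cell markers, 8 in the list, summed to 36.0 to 50.2 CPM in hypoxic and 54.5 to 129.7 in normoxic Cav1-KO, without overlap. Of these 2 were called lower, and the same normoxic library was highest. In Control they summed to 29.1 to 66.4 CPM in hypoxia and 65.55 to 165 in normoxia. In Cav1-RC the sums were 25.4 to 45.5 and 47.0 to 88.6. Of the T cell markers 3 of 10 were called lower. Their part in the lower Ccl5 was not tested. In females alone the Ccl5 change of −1.41 (SE 0.34, adjusted p = 0.0174) became −0.60 without that library, and it was not called with the list term. The median of Ccl5 went from 21.4 CPM in normoxic to 13.1 in hypoxic Control, and from 19.5 to 17.4 in Cav1-RC. Its change in Cav1-KO differed from that in Control by −0.30 (SE 0.35, adjusted p = 0.554), so the fall is not shown to be particular to Cav1-KO.

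Calls in male Cav1-RC rest on a normoxic group in which 2 of 3 libraries went against their sex label. There Ccl20 rose by 2.10 (SE 0.53, adjusted p = 0.0444), from 0.208, 0.163 and 0.774 CPM to 2.10, 1.34 and 1.24. Ccl28 rose by 2.09 (SE 0.54, adjusted p = 0.0476), from 0.292, 0.434 and 1.07 CPM to 2.97, 3.26 and 1.11. Cxcl17 rose by 1.05 (SE 0.17, adjusted p = 0.0106), from 21.6, 25.2 and 31.2 CPM to 46.3, 47.5 and 65.2. Cxcl12 rose by 1.28 (SE 0.10, adjusted p = 0.000664). Of 6 fits without 1 library, 1 kept the call of Ccl20 (1.75 to 3.025) and 2 that of Ccl28 (1.71 to 2.77). The call of Cxcl17 was kept in 4 (0.86 to 1.20) and that of Cxcl12 in 6. Ciliated cell markers summed to 321 to 440 CPM in the normoxic and 545 to 618 in the hypoxic group, with 0 of 8 called, and club cell markers to 22774 to 29121 and 25755 to 38347, with 1 of 6 called higher. Their part in these rises was not tested. Without those 2 libraries, which leaves 1 normoxic library assumed to vary like the others, none of the 5 calls of this comparison remained.

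In hypoxia the lungs labelled Cav1-RC held more of several ligands than Cav1-KO lungs. Over both sexes 7 ligands were higher and 0 lower of 31 tested, beside 14.7% of all genes called. In normoxia 2 were higher and 0 lower of 27 (4.28%). The ligands' median log2 difference was 0.49 in hypoxia and 0.09 in normoxia, against 0.00 over all genes in both. By sex, 3 of 31 were higher in hypoxic females (8.98%), 4 of 29 in hypoxic males (14.8%), and 2 of 25 in normoxic males, where 1 was lower (3.59%). In normoxic females none of 23 was called (0.1%), with 6 at an unadjusted p under 0.05 and 4 called by DESeq2.

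Ccl17 stood higher in Cav1-RC than in Cav1-KO. In normoxia it read 5.98 and 4.49 CPM in female and 4.75, 6.13 and 2.74 in male Cav1-RC, above all Cav1-KO libraries, at 1.34 (SE 0.25, adjusted p = 0.00897). The adjusted p was 0.05 without female Cav1-KO normoxia replicate 2, and the difference was 0.98 and not called without the 3 libraries whose sex genes go against the label. In hypoxia it read 2.94, 7.75 and 2.35 in females and 1.67, 1.60 and 2.74 in males, overlapping Cav1-KO, at 1.19 (SE 0.32, adjusted p = 0.00812). Without female Cav1-RC hypoxia replicate 2 that difference was 0.83. Ccl20 was the other normoxic call, with 73 counts in 5 Cav1-RC libraries against 3 in 5 Cav1-KO libraries, a ratio at equal depth of 22.6 (exact 95% interval for counting error alone 7.43 to 112.1). Its Cav1-RC libraries held 3.16 and 0.296 CPM in females and 0.208, 0.163 and 0.774 in males, and the call (5.23, SE 1.37, adjusted p = 0.0448) was kept in 1 of 9 fits without 1 library. Female replicate 1 held 47 of the 73 counts. Ciliated cell markers summed to 321 to 831 CPM in normoxic Cav1-RC against 195 to 237 in Cav1-KO, with 6 of 8 called higher. Club cell markers summed to 21472 to 78306 against 15739 to 20069, with 2 of 6 called higher. Neither list overlapped, female Cav1-RC replicate 1 was highest in both, and their part in the Ccl20 values was not tested.

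Ccl22 read 10.6 and 8.22 CPM in normoxic female, 9.21, 8.41 and 3.69 in normoxic male, 4.49, 8.31 and 7.45 in hypoxic female and 3.59, 2.30 and 3.13 in hypoxic male Cav1-RC. It exceeded hypoxic Cav1-KO by 1.07 (SE 0.33, adjusted p = 0.0157), with overlap. That call was kept in 7 of 12 fits without 1 library (0.90 to 1.36), and with the blot list as a term the value was 0.89. Dendritic cell markers summed to 136 to 186 CPM in hypoxic Cav1-RC, with 1 of 9 higher and 1 lower than in Cav1-KO.

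Ligands of lymphocytes made up most of the other hypoxic calls. Cxcl10 read 2.35, 3.94 and 2.96 CPM in female and 1.79, 3.00 and 3.65 in male Cav1-RC, against 0.804, 1.25 and 1.75 in female and 0.692, 1.27 and 1.14 in male Cav1-KO. All Cav1-RC libraries were above all Cav1-KO ones, at 1.36 (SE 0.28, adjusted p = 0.00137), and the call held in 12 of 12 fits without 1 library, though not with the blot list as a term (1.45). In normoxic males it was higher by 1.08 (SE 0.31, adjusted p = 0.0467), a call kept in 1 of 6 such fits. Its partner Cxcl9 lay at 0.958 to 3.06 CPM (median 2.01) against 0.446 to 1.89 (median 0.904), at 1.06 (SE 0.34, adjusted p = 0.0184). With the term the Cxcl9 difference was 0.07, and 6 of 12 fits without 1 library kept the call.

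Cxcl13, the ligand of CXCR5 that draws B cells into follicles, lay at 8.85 to 15.0 CPM (median 13.1) in hypoxic Cav1-RC against 1.88 to 10.8 (median 6.21) in Cav1-KO, at 1.05 (SE 0.25, adjusted p = 0.00386). The call was lost, at 0.97, 0.85 and 0.97, without female Cav1-KO replicate 1, male Cav1-KO replicate 1 or male Cav1-RC replicate 2. Ccl4, an attractant of monocytes and T cells, lay at 0.681 to 3.96 CPM (median 0.877) against 0.255 to 0.807 (median 0.628), at 1.24 (SE 0.47, adjusted p = 0.0417), a call kept in 4 of 12 fits without 1 library (0.59 to 1.44). Cxcl14 exceeded hypoxic Cav1-KO with no overlap, at 1.38 (SE 0.20, adjusted p = 0.000135), or 0.62 and not called with the blot list as a term.

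In hypoxic males Ccl28 was higher as well, at 1.53 (SE 0.43, adjusted p = 0.0189), with 3 of 6 fits without 1 library keeping the call. Some leukocyte markers were higher in the same comparison and others lower. In hypoxic Cav1-RC 6 of 10 T cell markers were higher than in Cav1-KO, summing to 58.9 to 94.1 CPM against 29.8 to 62.5. Of 8 B cell markers 4 were higher, summing to 88.1 to 189 against 38.8 to 121, and of 10 neutrophil markers 9 were higher, summing to 124 to 493 against 50.3 to 321. Of 8 NK cell markers 0 were higher and 2 lower, summing to 25.4 to 45.5 against 36.0 to 50.2, and the dendritic cell sums given above were 136 to 186 against 165 to 210. Of 10 monocyte and interstitial macrophage markers 3 were higher. Of 8 alveolar type 2 markers 3 were higher. No marker of these lists was at 0 in every library. Their part in Cxcl9, Cxcl10, Cxcl13 and Ccl4 was not tested.

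Set against Control, hypoxic Cav1-RC was higher in 3 ligands and lower in 0 of 30 (3.73% of all genes called), and in normoxia none of 28 was called (2.28%), with 4 at an unadjusted p under 0.05 and 0 called by DESeq2. Cxcl13 was higher by 1.25 (SE 0.29, adjusted p = 0.0253), Cxcl10 by 1.11 (SE 0.29, adjusted p = 0.0352) and Cxcl2 by 1.97 (SE 0.50, adjusted p = 0.0324). Control held Cxcl13 at 2.68 to 9.42 CPM (median 4.47), Cxcl10 at 0.660 to 2.46 (median 1.39) and Cxcl2 at 0.0689 to 0.523 (median 0.202), and each overlapped Cav1-RC. These calls were kept in 8, 3 and 3 of 12 fits without 1 library. Neutrophil markers summed to 124 to 493 CPM in hypoxic Cav1-RC and 83.1 to 171 in hypoxic Control, with overlap. B cell markers summed to 88.1 to 189 and 52.9 to 202, and T cell markers to 58.9 to 94.1 and 52.6 to 94.9. Their part in these calls was not tested. Both contrasts of Cav1-RC use the same Cav1-RC libraries.

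By sex, hypoxic male Cav1-RC was lower than Control in 3 of 29 ligands (9.90% of all genes called). These were Ccl17 at −1.08 (SE 0.30, adjusted p = 0.0235), Ccl22 at −1.37 (SE 0.34, adjusted p = 0.0151) and Cxcl5 at −1.94 (SE 0.53, adjusted p = 0.021). Of 6 fits without 1 library, 2, 3 and 2 kept these calls, and Cxcl5 was −1.13 without male Control hypoxia replicate 1. With the blot list as a term none of these was called, and Cxcl5 turned to 0.16. Normoxic male Cav1-RC was lower in 1 of 27, Ccl20 (2.45%), at −3.83 (SE 0.82, adjusted p = 0.042). That call was kept in 2 of 6 fits without 1 library (−4.76 to −3.14). It was lost with all libraries in 1 fit, with the blot list as a term, and without the libraries whose sex genes go against the label. In females none was called of 26 in normoxia (0.137%) or of 27 in hypoxia (0.832%), with 5 at an unadjusted p under 0.05 in each and 0 and 3 called by DESeq2.

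**Figure D5:**
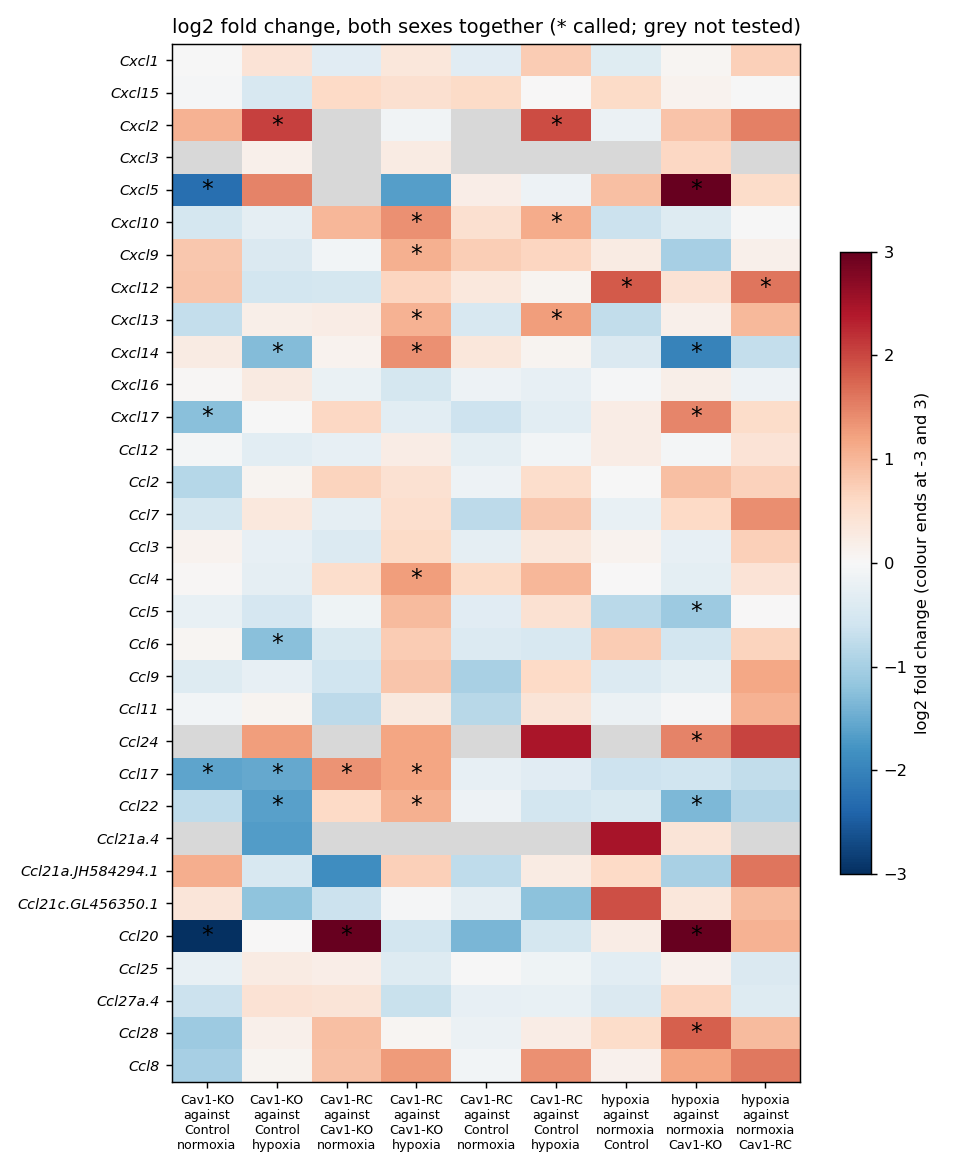
Log2 fold changes of the chemokine ligands in the 9 comparisons with both sexes together, as a heat map with stars for called changes and grey for genes not tested. Ccl17 is lower in Cav1-KO than in Control at both oxygen levels, Cxcl12 carries the stars of hypoxia in Control and Cav1-RC, and 8 ligands carry stars of hypoxia in Cav1-KO.

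Across genotypes, the hypoxic change of 2 ligands was higher and of 2 lower in Cav1-KO than in Control of 32 tested, beside 8.46% of all genes called: Ccl20 and Cxcl17 higher, Cxcl12 and Cxcl14 lower. Between Cav1-RC and Cav1-KO 5 were higher and 2 lower of 31 (17%). Besides Cxcl12 and Cxcl14, the higher ones were Ccl5 at 1.08 (SE 0.34, adjusted p = 0.0151), Ccl9 at 1.45 (SE 0.46, adjusted p = 0.0162) and the scaffold copy of Ccl21a at 2.58 (SE 0.87, adjusted p = 0.0227). The lower ones were Ccl20 at −5.79 (SE 2.13, adjusted p = 0.0354) and Ccl27a on chromosome 4 at −1.04 (SE 0.31, adjusted p = 0.012), which turned to 0.53 with the blot list as a term. None of the 7 was called with that term. Of 22 fits without 1 library, 18 kept the call of Ccl5 (0.69 to 1.31), 18 that of Ccl21a (1.90 to 2.97), 14 that of Ccl20 (−7.41 to −4.11) and 17 that of Ccl27a (−1.23 to −0.79). Ccl5 was lowest, at 0.69, without female Cav1-KO normoxia replicate 1. Between Cav1-RC and Control none of 31 was called (0.0934%), with 5 at an unadjusted p under 0.05 and 1 called by DESeq2.

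Ccl9, a macrophage ligand of CCR1, was far higher in 1 library. Female Cav1-RC hypoxia replicate 2 held 90.0 CPM against 12.1 to 19.8 in the other hypoxic Cav1-RC libraries, and without it the difference was 0.82, which is under the fold threshold. Its call held in 21 of 22 fits without 1 library. The same library was highest of its group for Ccl24 (32.3 CPM), Ccl6 (369), Ccl8 (38.1) and Ccl11 (23.8). It was the highest of all 34 libraries for 10 of the 42 genes. Its alveolar macrophage markers summed to 3681 CPM, also the highest of all libraries. The part of that library's cells in these values was not tested.

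The female and male changes were also compared with each other. In all 9 comparisons of the female with the male change, edgeR called 0 genes of any kind (0% of all genes tested), and 2 to 8 ligands had an unadjusted p under 0.05. DESeq2 called 1 ligand in 1 of the 9, the difference of Cav1-RC from Control in hypoxia. With no filter on low counts edgeR called 1 to 7 ligands in 5 of the 9, and leaving out 1 library gave up to 5. A call in 1 sex alone above is therefore not shown to be particular to that sex.

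The receptors gave a second view of the same pathway. The list held 18 typical receptors. In normoxic Cav1-KO against Control 0 were higher and 3 lower of 17 tested, beside 5.78% of all genes called. These were Cxcr5 at −1.13 (adjusted p = 0.0155), Ccr6, the receptor of Ccl20, at −1.63 (adjusted p = 0.0362) and Cxcr1 at −2.0 (adjusted p = 0.0465). B cell markers, 8 in the list, summed to 57.9 to 88.1 CPM in normoxic Cav1-KO against 74.5 to 239 in Control, with 4 called lower, and T cell markers are given above. In hypoxia 1 of 17 was lower (4.14% of all genes called), Cxcr1 at −2.94 (adjusted p = 0.0162). Ccr4, the receptor of Ccl17 and Ccl22, was higher in normoxic Cav1-RC than in Cav1-KO at 1.57 (adjusted p = 0.0121). It was 1 of 2 higher with 0 lower of 15 (4.28% of all genes called). There B cell markers summed to 118 to 163 CPM against 57.9 to 88.1, with 4 of 8 called higher, and T cell markers to 69.6 to 81.6 against 40.0 to 71.3, with 0 of 10 called. The part of these markers in the receptor values was not tested. In hypoxia 7 of 16 were higher in Cav1-RC than in Cav1-KO, beside 14.7% of all genes called. Among them were Cxcr5 at 1.49 (adjusted p = 0.000128), Cxcr3, the receptor of Cxcl9 and Cxcl10, at 1.06 (adjusted p = 0.000941) and Ccr7 at 1.10 (adjusted p = 0.00202).

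In hypoxic against normoxic Cav1-KO, where blot list and oxygen level cannot be told apart, Cxcr4, the receptor of Cxcl12, was lower at −1.10 (adjusted p = 2.29e-06) and Xcr1 at −1.19 (adjusted p = 0.00236). In Control and Cav1-RC none was called (0.846% and 1.22% of all genes called). Cxcr2, the receptor of the ELR ligands, was higher in Cav1-RC than in Control at both oxygen levels, at 1.43 (adjusted p = 0.00997) and 1.39 (adjusted p = 0.021). Among 5 atypical receptors, which take up ligands without signalling to G proteins, Ackr4 was higher in normoxic Cav1-KO than in Control at 1.16 (adjusted p = 0.000583) and lower in hypoxic than in normoxic Cav1-KO at −1.73 (adjusted p = 7.74e-06). Lymphatic endothelium markers, 6 in the list, summed to 497 to 667 CPM in normoxic Cav1-KO and 314 to 534 in normoxic Control, with none called. In hypoxic Cav1-KO they summed to 284 to 381, below all normoxic Cav1-KO libraries, with 1 called lower. Their part in the Ackr4 values was not tested. Ackr1 was higher in hypoxic Cav1-KO than in Control at 1.92 (adjusted p = 0.0102). Ccr7 and Xcr1 are also dendritic cell markers, and Cxcr2 a neutrophil marker, of the lists used here.

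Of the 4 chemokine ligands outside the CC and CXC symbols, Cx3cl1, the membrane-bound ligand of monocytes, fell in hypoxia in Control at −1.60 (adjusted p = 0.000887) and in Cav1-KO at −1.08 (adjusted p = 2.53e-06). Pf4 and Ppbp, stored in platelets, rose in hypoxic Cav1-KO at 1.92 and 3.05. They were also higher in hypoxic Cav1-KO than in Control, at 1.3 and 2.53. The 6 platelet markers, which do not include them, summed to 47.6 to 244.9 CPM in hypoxic Cav1-KO, 28.0 to 35.2 in normoxic Cav1-KO and 34.2 to 67.6 in hypoxic Control. Of 5 tested, 4 and 3 were called higher in these comparisons, and their part in Pf4 and Ppbp was not tested.

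The Ccl21 copies, all ligands of CCR7, are near-identical in sequence. Over the length of the chromosome 4 Ccl21b transcript, that of Ccl21a on chromosome 4 differed at 2 bases. The scaffold copy of Ccl21a took 46.8 to 99.5% of all Ccl21 counts of a library, so the split among the 6 copies is uncertain. Summed over all copies Ccl21 lay at 3.26 to 57.5 CPM and was called in none of the 27 comparisons of groups or of both sexes. It was called in 1 of the 3 tests across genotypes, the hypoxic change of Cav1-RC minus that of Cav1-KO, at 2.31 (SE 0.79, adjusted p = 0.0245). A scaffold copy of Ccl21c was called in normoxic males, lower in Cav1-RC than in Cav1-KO at −2.76 (SE 0.45, adjusted p = 0.00277). Because a read can match several copies, that call is uncertain, as is that of the scaffold copy of Ccl21a above. The Ccl21c copy read 0.250, 0.217 and 0.179 CPM in Cav1-RC and 0.808, 1.66 and 2.05 in Cav1-KO.

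Cxcl15, the most abundant ligand, lay at 633 to 1149 CPM in normoxic Control and 1126 to 1597 in hypoxic Control, at 767 to 1159 and 722 to 1251 in Cav1-KO, and at 1108 to 1681 and 1106 to 1686 in Cav1-RC. No comparison called it. Cxcl16 was lower in hypoxic Cav1-RC, at 50.1 to 68.6 CPM, than in hypoxic Cav1-KO, at 74.1 to 101.7, without overlap. That difference of −0.53 (SE 0.09, adjusted p = 0.000528) was under the fold threshold. The CCR2 ligands Ccl2, Ccl7 and Ccl12, which attract monocytes, were also called in none of the comparisons. Ccl2 lay at 0.349 to 7.19 CPM over all libraries, Ccl7 at 0.147 to 7.44 and Ccl12 at 0.413 to 3.06. The same holds for Ccl3 (0.0637 to 3.06 CPM), a ligand of CCR1, for Ccl8 (0.811 to 38.1), for the eotaxin Ccl11 (1.83 to 23.8), for Ccl25 (2.66 to 7.51), for the ELR ligands Cxcl1 (0.218 to 2.94) and Cxcl3 (0 to 2.61), and for Ccl21a on chromosome 4 (0 to 8.70).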

How the data were processed

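Whole-lung poly-A RNA was sequenced as 35 directional paired-end libraries. The authors aligned the reads with HISAT2 2.0.5 to mm10 and counted them per gene with featureCounts 1.5.0-p3. The deposited counts are raw reads per gene, and the authors also deposited FPKM values, which scale them by gene length and library size. How that program treated reads shared by near-identical copies was left at its defaults.

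Here the counts of 34 libraries were fitted in edgeR 4.0.16 (R 4.3.3) with TMM factors, filterByExpr on the groups compared and the quasi-likelihood test, and adjusted over the 16981 to 17853 genes tested pairwise. The 39 comparisons were 18 of 2 groups, 9 of both sexes together (mean of the female and male change), 9 of the female minus the male change and 3 of the hypoxic change between 2 genotypes. CPM use TMM-scaled totals. FPKM served only for levels between genes. The scripts were tested on simulated data. Floors are 3 counts, and intervals cover counting error only.

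The 42 ligands, the receptor lists and the marker lists were chosen with earlier results of these data known. Ligands were described singly when called in a comparison of groups or of both sexes, when among the 8 with the highest mean FPKM, or when near-identical copies. Alternatives were DESeq2 1.42.0 (its size factors and its Wald test), no filter, 1 fit over all libraries, that fit with the blot source list as a term, the replicate block, each library left out, and the 3 libraries with sex genes against their label left out. Replicates are separate libraries of a group, the p-values measure the spread between them, and no 2 of a group agreed within sampling noise. Gene coordinates are the mm10 ones of the count table. Promoter sequences are from RefSeq on GRCm38.p6, whose gene starts can differ from those of the count table. Some receptors and motifs are not reported here.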

Additional observations from a re-analysis of the deposited data

Results flagged for a closer look

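The hypoxic change of 4 ligands differed between Cav1-KO and Control by the test of the difference itself, 12.5% of the 32 tested beside 8.46% of all genes. It was lower in Cav1-KO for Cxcl12 by −1.41 and for Cxcl14 by −1.57, and higher for Cxcl17 by 1.23 and for Ccl20 by 6.69 on the log2 scale. All hypoxic Cav1-KO libraries are on the blot source list, against 4 of 6 hypoxic Control libraries. With the list as a term only the Cxcl14 difference of these 4 stayed past the threshold. The term is estimated from female groups outside Cav1-KO, so it does not separate list from condition here.

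The hypoxic change of 7 ligands differed between the lungs labelled Cav1-RC and Cav1-KO, 22.6% of the 31 tested beside 17% of all genes. It was higher in Cav1-RC for Cxcl12 by 1.16, for Cxcl14 by 1.29, for Ccl5 by 1.08, for Ccl9 by 1.45 and for the scaffold copy of Ccl21a by 2.58. It was lower for Ccl20 by −5.79 and for the chromosome 4 gene Ccl27a by −1.04. No hypoxic Cav1-RC library is on the list and every hypoxic Cav1-KO library is. None of the 7 was past the threshold with the list as a term. The term is estimated outside these hypoxic groups, so it does not separate list from genotype here. Both sets of differences use the same Cav1-KO libraries.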

How the results depend on the processing

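Of 76 single calls of a named ligand, all 76 kept direction and threshold under DESeq2's size factors and with no filter on low counts, 72 under DESeq2's Wald test, 66 with the replicate block and 57 with all libraries in 1 fit. With the blot list as a term 27 did, 47 lost the threshold and 2 turned, Cxcl5 in male hypoxic Cav1-RC against Control to 0.162 and the chromosome 4 Ccl27a in the hypoxic change of Cav1-RC minus Cav1-KO to 0.532. The cause of these changes was not tested. Of 38 calls that the 3 libraries with sex genes against their label touch, 23 remained called without them. A comparison named below with no sex is that of both sexes together. Ligands under about 1 CPM, such as Ccl20, Ccl24, Cxcl2 and Cxcl5, are limited by depth. The replicate numbers did not pair the libraries: in 0 of 13 comparisons with 3 pairs did every pair's correlation of deviations exceed 0.1 (range −0.165 to 0.469). No count of called ligands changed by over 1.5 times under DESeq2's size factors in any of the 39 comparisons. With all 34 libraries in 1 fit the count of called ligands changed by over 1.5 times from 0 to 1 in Cav1-KO against Control (normoxia, female) and hypoxia against normoxia (Cav1-RC, female), and from 0 to 2 in hypoxia against normoxia (Control, female). There it also went from 0 to 3 in Cav1-RC against Control (hypoxia, female), and from 0 to 8 in Cav1-KO against Control (hypoxia, female). Further, the count went from 1 to 0 in Cav1-RC against Control (normoxia, male), and from 1 to 2 in Cav1-KO against Control (hypoxia, male), hypoxia against normoxia (Control) and hypoxia against normoxia (Cav1-RC). The same setting took it from 2 to 1 in Cav1-RC against Cav1-KO (normoxia), and from 3 to 0 in Cav1-RC against Cav1-KO (normoxia, male). Elsewhere it went from 3 to 5 in Cav1-RC against Cav1-KO (hypoxia, female), and from 3 to 6 in hypoxia against normoxia (Cav1-KO, female). Other counts there went from 5 to 0 in hypoxia against normoxia (Cav1-RC, male). With the blot list as a term of that fit it changed from 0 to 1 in Cav1-RC against Cav1-KO (normoxia, female) and hypoxia against normoxia (Cav1-RC, female), and from 0 to 2 in hypoxia against normoxia (Control, female) and the hypoxic change of Cav1-RC minus that of Control. In that fit the count also went from 0 to 3 in Cav1-RC against Control (hypoxia, female), and from 0 to 4 in Cav1-KO against Control (hypoxia, female). There it also went from 1 to 0 in Cav1-RC against Control (normoxia, male), and from 1 to 2 in Cav1-KO against Control (hypoxia, male), hypoxia against normoxia (Control) and hypoxia against normoxia (Cav1-RC). Further, the count went from 3 to 0 in Cav1-RC against Control (hypoxia, male) and hypoxia against normoxia (Cav1-KO, female), and from 3 to 1 in Cav1-RC against Cav1-KO (normoxia, male), Cav1-RC against Cav1-KO (hypoxia, female) and Cav1-RC against Control (hypoxia). The same setting took it from 4 to 0 in Cav1-RC against Cav1-KO (hypoxia, male), and from 4 to 1 in hypoxia against normoxia (Cav1-KO, male). Elsewhere it went from 4 to 2 in the hypoxic change of Cav1-KO minus that of Control, and from 5 to 2 in hypoxia against normoxia (Cav1-RC, male). Other counts there went from 7 to 0 in the hypoxic change of Cav1-RC minus that of Cav1-KO, and from 7 to 4 in Cav1-RC against Cav1-KO (hypoxia). In that fit the count also went from 8 to 3 in hypoxia against normoxia (Cav1-KO). Under DESeq2's Wald test it changed from 0 to 1 in hypoxia against normoxia (Control, female), the sex difference of Cav1-RC against Control (hypoxia) and the hypoxic change of Cav1-RC minus that of Control, and from 0 to 2 in Cav1-KO against Control (normoxia, female) and hypoxia against normoxia (Cav1-RC, female). There it also went from 0 to 3 in Cav1-RC against Control (hypoxia, female), and from 0 to 4 in Cav1-KO against Control (hypoxia, female) and Cav1-RC against Cav1-KO (normoxia, female). Further, the count went from 1 to 2 in Cav1-KO against Control (hypoxia, male) and hypoxia against normoxia (Cav1-RC), and from 1 to 4 in Cav1-RC against Control (normoxia, male). The same setting took it from 3 to 5 in Cav1-RC against Control (hypoxia, male), and from 3 to 7 in hypoxia against normoxia (Cav1-KO, female). Elsewhere it went from 5 to 8 in Cav1-KO against Control (normoxia, male). With no filter on low counts it changed from 0 to 1 in hypoxia against normoxia (Control, female) and the sex difference of Cav1-KO against Control (hypoxia), and from 0 to 2 in Cav1-KO against Control (hypoxia, female) and the sex difference of hypoxia against normoxia (Cav1-KO). Other counts there went from 0 to 3 in the sex difference of Cav1-RC against Cav1-KO (hypoxia), and from 0 to 4 in Cav1-KO against Control (normoxia, female). In that fit the count also went from 0 to 5 in Cav1-RC against Cav1-KO (normoxia, female) and the sex difference of Cav1-RC against Cav1-KO (normoxia), and from 0 to 7 in the sex difference of hypoxia against normoxia (Cav1-RC). There it also went from 0 to 8 in hypoxia against normoxia (Cav1-RC, female), and from 1 to 3 in Cav1-KO against Control (hypoxia, male). Further, the count went from 1 to 5 in Cav1-RC against Control (normoxia, male), and from 1 to 9 in hypoxia against normoxia (Cav1-RC). The same setting took it from 2 to 4 in hypoxia against normoxia (Control, male), and from 2 to 5 in Cav1-RC against Cav1-KO (normoxia). Elsewhere it went from 3 to 7 in Cav1-RC against Control (hypoxia, male), and from 3 to 9 in Cav1-RC against Cav1-KO (hypoxia, female) and hypoxia against normoxia (Cav1-KO, female). Other counts there went from 4 to 7 in the hypoxic change of Cav1-KO minus that of Control, and from 5 to 8 in Cav1-KO against Control (normoxia, male) and hypoxia against normoxia (Cav1-RC, male). In that fit the count also went from 7 to 12 in the hypoxic change of Cav1-RC minus that of Cav1-KO. With the replicate number as a block, tried although the numbers did not pair the libraries, it changed from 0 to 1 in hypoxia against normoxia (Control, female) and Cav1-RC against Control (normoxia), and from 0 to 2 in Cav1-RC against Cav1-KO (normoxia, female). There it also went from 0 to 4 in Cav1-KO against Control (normoxia, female) and hypoxia against normoxia (Cav1-RC, female), and from 1 to 0 in Cav1-KO against Control (hypoxia, male). Further, the count went from 1 to 2 in hypoxia against normoxia (Cav1-RC), and from 1 to 3 in Cav1-RC against Control (normoxia, male). The same setting took it from 2 to 1 in Cav1-RC against Cav1-KO (normoxia), and from 3 to 5 in hypoxia against normoxia (Cav1-KO, female). Elsewhere it went from 5 to 3 in hypoxia against normoxia (Cav1-RC, male) and Cav1-KO against Control (hypoxia). Within the libraries not on the blot list, an alternative chosen after seeing the data, it changed from 0 to 1 in Cav1-KO against Control (normoxia, female), Cav1-RC against Cav1-KO (normoxia, female) and Cav1-RC against Control (hypoxia, female), and from 0 to 3 in hypoxia against normoxia (Control, female). Within the listed libraries alone, likewise added later, it changed from 5 to 2 in Cav1-KO against Control (hypoxia). Without the 3 libraries whose sex genes go against the label it changed from 1 to 0 in Cav1-RC against Control (normoxia, male) and hypoxia against normoxia (Cav1-RC), and from 1 to 3 in Cav1-KO against Control (hypoxia, male). Other counts there went from 2 to 0 in Cav1-RC against Cav1-KO (normoxia), and from 3 to 1 in Cav1-RC against Cav1-KO (normoxia, male). In that fit the count also went from 3 to 6 in Cav1-RC against Control (hypoxia, male), and from 5 to 0 in hypoxia against normoxia (Cav1-RC, male). There it also went from 5 to 3 in Cav1-KO against Control (hypoxia).

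Leaving out 1 library at a time, where a group left with 1 library is assumed to vary like the others, the count ran from 0 to 1 in Cav1-KO against Control (normoxia, female), Cav1-RC against Control (hypoxia, female), Cav1-RC against Control (normoxia), the sex difference of hypoxia against normoxia (Cav1-RC) and hypoxia against normoxia (Cav1-RC, female), from 0 to 3 in Cav1-KO against Control (hypoxia, male), Cav1-RC against Control (hypoxia) and the sex difference of hypoxia against normoxia (Control), from 0 to 4 in the sex difference of Cav1-RC against Control (hypoxia) and Cav1-RC against Control (normoxia, male). It ran from 0 to 5 in the sex difference of Cav1-KO against Control (hypoxia), Cav1-RC against Cav1-KO (normoxia) and the sex difference of Cav1-RC against Cav1-KO (normoxia), from 0 to 6 in Cav1-RC against Control (hypoxia, male), from 0 to 7 in Cav1-KO against Control (hypoxia, female). It ran from 1 to 3 in Cav1-RC against Cav1-KO (normoxia, male) and hypoxia against normoxia (Cav1-RC), from 1 to 4 in hypoxia against normoxia (Cav1-KO, female), from 1 to 7 in Cav1-RC against Cav1-KO (hypoxia, female). It ran from 1 to 11 in Cav1-RC against Cav1-KO (normoxia, female), from 2 to 6 in Cav1-RC against Cav1-KO (hypoxia, male) and the hypoxic change of Cav1-KO minus that of Control, from 2 to 8 in Cav1-KO against Control (normoxia, male) and hypoxia against normoxia (Cav1-RC, male). It ran from 3 to 5 in Cav1-KO against Control (hypoxia), from 3 to 11 in Cav1-RC against Cav1-KO (hypoxia) and the hypoxic change of Cav1-RC minus that of Cav1-KO, from 5 to 10 in hypoxia against normoxia (Cav1-KO).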

Other observations

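The library whose identity the labels call uncertain held 30930450 counts. Its animal is also named on the blot source list. Its levels are CPM of its raw total, not TMM-scaled like those above. Its Cav1 level was 4.43 CPM. It held Ccl17 at 0.905 CPM, Ccl22 at 1.26, Cxcl12 at 445.6, Cxcl14 at 29.7, Cxcl17 at 46.3, Ccl20 at 0.226 and Cxcl15 at 815.7.

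Other chemokine symbols fell outside the protein-coding rule. Cxcl11, a CXCR3 ligand annotated as a polymorphic pseudogene, had 29 counts over all libraries and at most 5 in one. The pseudogenes Ccl19-ps1 and Ccl19-ps3 had 1 and 474 counts.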
